A study of Homo sapiens with 9 samples.

Results

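The MYC and MAX network was followed here through 10 genes, MYC, MAX, MXD1, MXD3, MXD4, MXI1, MNT, MLX, MLXIP and MGA. They were taken by symbol from the deposited table of normalized read counts, as the entry on a primary chromosome, and the rule used no measured difference. All 10 were found among the 63677 genes of the table, and all 10 passed the filter on low values. MYC is a transcription factor that works as a dimer with MAX, and the dimer binds the E-box sequence and raises transcription of genes for ribosome production, nucleotide synthesis and growth. MXD1, MXD3, MXD4, MXI1 and MNT bind the same partner and the same DNA sequence, and recruit the SIN3 corepressor, so they act as antagonists of MYC. MLX and MLXIP (MondoA) form a linked branch that senses glucose metabolites, and MGA joins MAX in a Polycomb complex. In colon carcinoma, MYC is known as a target of Wnt and beta-catenin signalling.

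HCT116 is an established line from a human colon carcinoma. Its polyadenylated RNA was profiled 48 h after lipid transfection of siRNA, with 3 libraries a group. The siRNF40 cells are labelled as RNF40 knockdown, the siTG2 cells as TG2 knockdown, and the siControl cells as wild type with a control siRNA. All 3 groups therefore share the transfection, and the design asks how loss of each protein changes mRNA levels. RNF40 is a ubiquitin ligase that, with RNF20, places ubiquitin on histone H2B, and TG2 (gene TGM2) is a transglutaminase that cross-links proteins. The labels give no separate cultures for the replicates, so the spread behind each p-value is that between these samples and may be technical. Each target is represented by a single siRNA group. For each knockdown a short sequence word was searched in the 3′ untranslated regions of 13416 genes. How the words were chosen is not given in the sources used here, and no other words were compared. Genes with and without a word were not matched for the length of this region, so the shares below are descriptions only. In siRNF40 cells 50.4% of genes with GTCTTCA were called lower (limma adjusted p under 0.05), against 24.5% without it. In siTG2 cells 37.3% of genes with GCGCCCT were called lower, against 22.2% without it. Of the network genes only MGA held GTCTTCA there, and none held GCGCCCT. The part of this in the results was not tested.

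The libraries held 29161285 to 35743918 reads assigned to genes. The siTG2 libraries stood apart, with 27123 to 27602 genes with a read, against 25162 to 25548 in the other libraries, and with normalized totals of 28807600 to 29454800, against 32122900 to 33219600. The part of this in the siTG2 results was not tested. RNF40 had 535, 497 and 528 normalized counts in siRNF40 libraries, against 3004, 2784 and 2565 in siControl libraries (log2 fold change -2.42, limma adjusted p = 5.3e-13). RNF40 was also lower in siTG2 cells than in siControl cells, with a log2 fold change of -0.27 and a limma adjusted p of 0.019. TGM2 had 59.4, 121 and 155 normalized counts in siTG2 libraries, against 559, 702 and 554 in siControl libraries (log2 fold change -2.52, limma adjusted p = 1.1e-07). In siRNF40 libraries TGM2 had 839, 830 and 963, all above siControl, but did not pass the test (log2 fold change 0.54, limma adjusted p = 0.063). The epithelial markers EPCAM, CDH1, KRT8, KRT18 and KRT19 were abundant in every library, while of the intestinal markers CDX2 was at 294 to 428 in every library and VIL1 and CDX1 did not pass the filter on low values. The summed level of the 8 epithelial and intestinal markers was 129433 to 156195 in siRNF40, 77901 to 89021 in siTG2 and 87274 to 95730 in siControl libraries. Among 6 fibroblast markers the sum was 1371 to 1705 in siRNF40, 1016 to 1172 in siTG2 and 822 to 997 in siControl libraries, nearly all of it COL1A1, with DCN and LUM at 0. The sum of 6 leukocyte and red cell markers was 1.85 to 12.8 in siRNF40, 18.6 to 49.0 in siTG2 and 3.80 to 14.5 in siControl libraries. The epithelial sum in siRNF40, the fibroblast sum in both knockdowns and the leukocyte and red cell sum in siTG2 did not overlap siControl, and their part in the results was not tested. In bulk RNA, fewer cells of a type and less RNA per cell cannot be told apart.

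Promoter sequence is shown for MXD1, the network gene with the largest change in siTG2 cells, for the 3 network genes whose promoter window holds an E-box, and for ARRDC4, a known target of the MLX branch. The 250 bases before the transcript start are given from RefSeq (GRCh38.p14), 5′ to 3′ on the strand of the gene, with the E-box in capitals. MXD1 lies at chr2:69914859-69915108 (+), MXD4 at chr4:2262110-2262359 (-), MNT at chr17:2401061-2401310 (-), MLX at chr17:42566850-42567099 (+) and ARRDC4 at chr15:97960453-97960702 (+).
MXD1: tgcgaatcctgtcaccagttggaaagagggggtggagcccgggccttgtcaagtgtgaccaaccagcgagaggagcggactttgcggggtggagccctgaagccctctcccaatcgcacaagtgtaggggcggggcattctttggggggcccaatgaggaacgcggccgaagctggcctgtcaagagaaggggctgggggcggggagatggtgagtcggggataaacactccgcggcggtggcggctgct
MXD4: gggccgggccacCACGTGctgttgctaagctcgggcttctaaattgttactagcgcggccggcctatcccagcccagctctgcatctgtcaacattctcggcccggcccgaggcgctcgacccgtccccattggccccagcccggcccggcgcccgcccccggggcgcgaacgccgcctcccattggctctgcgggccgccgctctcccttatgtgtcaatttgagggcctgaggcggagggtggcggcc
MNT: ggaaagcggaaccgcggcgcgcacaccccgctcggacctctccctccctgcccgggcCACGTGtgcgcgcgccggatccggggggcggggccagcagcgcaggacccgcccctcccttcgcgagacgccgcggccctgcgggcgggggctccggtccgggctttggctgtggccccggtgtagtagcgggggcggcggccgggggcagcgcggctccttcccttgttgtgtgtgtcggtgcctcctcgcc
MLX: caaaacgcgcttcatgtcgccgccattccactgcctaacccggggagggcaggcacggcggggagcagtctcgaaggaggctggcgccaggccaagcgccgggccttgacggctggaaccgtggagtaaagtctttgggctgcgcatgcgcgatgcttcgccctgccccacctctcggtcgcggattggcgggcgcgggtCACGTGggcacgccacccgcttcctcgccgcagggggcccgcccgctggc
ARRDC4: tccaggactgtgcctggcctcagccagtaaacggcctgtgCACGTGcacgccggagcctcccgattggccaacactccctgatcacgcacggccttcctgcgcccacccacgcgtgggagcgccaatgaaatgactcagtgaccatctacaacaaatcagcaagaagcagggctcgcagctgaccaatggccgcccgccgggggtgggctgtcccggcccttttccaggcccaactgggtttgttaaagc

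The E-box searched was CACGTG, which reads the same on both strands, in windows from 250 bases before to 50 after the start. It was in 7.26% of 35116 RefSeq promoter windows outside chromosome 8. The 9 network genes with a window had 14 windows, of which 3 held the E-box, those of MXD4, MNT and MLX. The match began 238 bases before the start in MXD4, 193 in MNT, 50 in MLX and 210 in ARRDC4. A match is a description of the letters and not a bound site, and the MXD1 window lacks only these letters.

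MYC moved in opposite directions in the knockdowns. MYC (ENSG00000136997, chr8:128747680-128753674, plus strand, hg19) had 10123, 9304 and 9469 normalized counts in siRNF40 libraries, 3608, 3756 and 3999 in siTG2 libraries, and 5510, 5943 and 5982 in siControl libraries. Every siRNF40 library lay above every siControl library, and every siTG2 library lay below them. MYC rose to 9632 ± 433 in siRNF40 cells, against 5812 ± 262 in siControl cells (SD, n = 3 each), which is 166% of the control mean. The log2 fold change was 0.73 (SE 0.064), with a limma adjusted p of 3.2e-08 over all genes tested. MYC fell to 3788 ± 197 in siTG2 cells, 65.2% of the siControl mean, with a log2 fold change of -0.62 (SE 0.064, limma adjusted p = 6.5e-07). Both comparisons use the same 3 siControl libraries, and the direct contrast of siRNF40 with siTG2 gave 1.35 (SE 0.064, limma adjusted p = 5.1e-12). In the authors' deposited table the MYC log2 fold changes were 0.73 in siRNF40 (adjusted p 5.6e-26) and -0.62 in siTG2 (adjusted p 3.8e-18).

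The share of network genes that passed the test was close to that over all genes in siRNF40 cells. In siRNF40 against siControl, 4 of 10 network genes passed the test, 3 higher and 1 lower, where 45.3% of the 17663 genes tested passed (21.7% higher and 23.6% lower). In siTG2 against siControl, 5 of 10 passed, 2 higher and 3 lower, where 31.3% of all genes passed (12.8% higher and 18.5% lower). In siRNF40 against siTG2, 7 of 10 passed, 5 higher and 2 lower, where 53.3% of all genes passed (26.6% in each direction). The median absolute log2 fold change of the 10 genes was 0.16 in siRNF40, 0.28 in siTG2 and 0.29 in the direct contrast, beside 0.38, 0.28 and 0.45 over all genes in the same order. Groups did not overlap for 5 network genes in siRNF40 against siControl (53.2% of all genes), for 7 in siTG2 against siControl (46.5%) and for 7 in the direct contrast (58.3%).

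**Figure D1:**
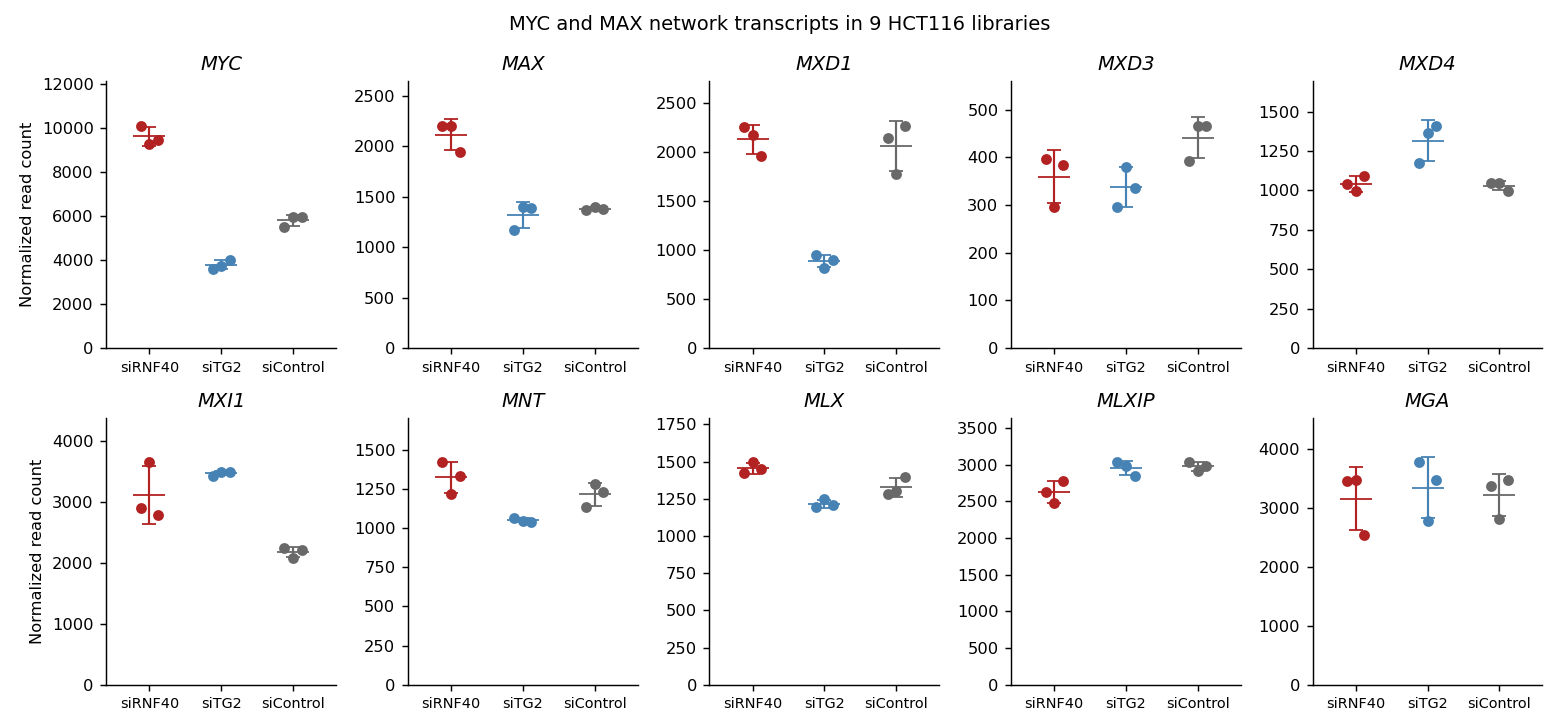
Normalized read counts of the 10 network genes in each library, by siRNF40, siTG2 and siControl. Points are libraries, and the horizontal mark and bar are the mean and SD of 3. MYC is highest in siRNF40 and lowest in siTG2, MXD1 is low in siTG2, and MXI1 is above siControl in both knockdowns.

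MAX, the shared dimer partner, rose with MYC in siRNF40 cells. MAX (ENSG00000125952, chr14:65472892-65569413, minus strand, hg19) had 2204, 2200 and 1937 normalized counts in siRNF40 libraries, 1174, 1395 and 1391 in siTG2 libraries, and 1370, 1400 and 1375 in siControl libraries. All siRNF40 libraries were above all others, and siTG2 and siControl libraries overlapped. The log2 fold change was 0.61 in siRNF40 against siControl (SE 0.085, limma adjusted p = 9.9e-06) and 0.68 in siRNF40 against siTG2 (SE 0.085, limma adjusted p = 1.7e-06). In siTG2 against siControl it was -0.07, with a 95% interval of -0.25 to 0.11 (limma adjusted p = 0.57). The MAX locus overlaps FNTB on the opposite strand, which averaged 236 in siRNF40, 211 in siTG2 and 278 in siControl cells and did not pass the test. Whether the counting used strand is not given in the sources used here, so reads from overlapping genes may not be told apart.

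MXD1, an antagonist that displaces MYC from MAX during differentiation in many tissues, had the largest change of any network gene against siControl. MXD1 (ENSG00000059728, chr2:70124820-70170077, plus strand, hg19) had 2257, 2172 and 1965 normalized counts in siRNF40 libraries, 948, 823 and 899 in siTG2 libraries, and 2141, 1776 and 2273 in siControl libraries. The siTG2 libraries lay far below all others, and siRNF40 and siControl libraries overlapped. MXD1 fell to 890 ± 63.0 in siTG2 cells, against 2063 ± 258 in siControl cells (SD, n = 3 each), with a log2 fold change of -1.21 (SE 0.095, limma adjusted p = 1.6e-08). In siRNF40 against siControl the log2 fold change was 0.05, with a 95% interval of -0.15 to 0.25 (limma adjusted p = 0.69). The direct contrast was 1.26 (SE 0.095, limma adjusted p = 2.2e-09). SNRNP27, a splicing factor gene that overlaps MXD1 on the same strand, did not pass the test in siTG2 cells, at 935 counts against 848 in siControl cells.

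MXI1, a further antagonist of the same family, rose in both knockdowns. MXI1 (ENSG00000119950, chr10:111967363-112047123, plus strand, hg19) had 2914, 3659 and 2787 normalized counts in siRNF40 libraries, 3436, 3505 and 3495 in siTG2 libraries, and 2242, 2086 and 2216 in siControl libraries. No knockdown library reached down to the siControl range, while siRNF40 and siTG2 libraries overlapped because siRNF40 replicate 2 was the highest of all. The log2 fold change was 0.51 in siRNF40 (SE 0.085, limma adjusted p = 7.7e-05) and 0.67 in siTG2 (SE 0.085, limma adjusted p = 6.8e-06), each against the same siControl libraries. The direct contrast was -0.17, with an interval of -0.35 to 0.01 (limma adjusted p = 0.11). Without siRNF40 replicate 2 it was -0.29 and passed the test (limma adjusted p = 0.0026). It also passed under quantile normalization (-0.23, limma adjusted p = 0.024) and with libraries scaled to equal totals (-0.34, limma adjusted p = 0.0018). Equal totals also moved the median of all genes in this contrast from -0.01 to -0.19.

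MXD4 rose in siTG2 cells and MXD3 was at the edge of the test. MXD4 (ENSG00000123933, chr4:2249159-2264021, minus strand, hg19) had 1042, 993 and 1093 normalized counts in siRNF40 libraries, 1172, 1366 and 1411 in siTG2 libraries, and 1046, 1044 and 997 in siControl libraries. The siTG2 libraries were above all others, with a log2 fold change of 0.35 against siControl (SE 0.089, limma adjusted p = 0.0052). In siRNF40 against siControl the log2 fold change was 0.02, with an interval of -0.17 to 0.21 (limma adjusted p = 0.88), and the direct contrast was -0.33 (limma adjusted p = 0.0039). MXD3 (ENSG00000213347, chr5:176728462-176739758, minus strand, hg19) had 398, 296 and 384 normalized counts in siRNF40 libraries, 297, 381 and 336 in siTG2 libraries, and 392, 467 and 466 in siControl libraries. The siTG2 libraries lay just below the siControl libraries, and the siRNF40 libraries overlapped both. MXD3 had a log2 fold change of -0.39 in siTG2 cells (SE 0.14, limma adjusted p = 0.047), a call lost in 9 of 20 alternatives, whose adjusted p ran from 0.026 to 0.2. In the authors' deposited table MXD3 in siTG2 had an adjusted p of 0.051. MXD3 overlaps RAB24 on the same strand and PRELID1 on the opposite strand, and PRELID1 was more abundant, at 3183 in siRNF40, 1796 in siTG2 and 1988 in siControl cells.

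MNT, an antagonist expressed in most tissues, did not pass the test against siControl. MNT (ENSG00000070444, chr17:2287354-2304412, minus strand, hg19) had 1421, 1217 and 1332 normalized counts in siRNF40 libraries, 1064, 1047 and 1042 in siTG2 libraries, and 1137, 1279 and 1233 in siControl libraries. The siTG2 libraries were below all others, and siRNF40 and siControl libraries overlapped. The log2 fold change was 0.12 in siRNF40 (limma adjusted p = 0.27) and -0.21 in siTG2 (limma adjusted p = 0.069), each against siControl. The direct contrast was 0.33 (SE 0.085, limma adjusted p = 0.003), but 0.15 with a limma adjusted p of 0.14 when libraries were scaled to equal totals. That scaling moved the median of all genes in this contrast from -0.01 to -0.19.

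In the MLX branch and MGA no log2 fold change was larger than 0.26. MLX (ENSG00000108788, chr17:40719086-40725257, plus strand, hg19), the partner of MLXIP, had 1424, 1496 and 1448 normalized counts in siRNF40 libraries, 1196, 1248 and 1207 in siTG2 libraries, and 1283, 1300 and 1399 in siControl libraries. The 3 groups did not overlap, yet neither knockdown passed the test against siControl, at log2 fold changes of 0.13 in siRNF40 (limma adjusted p = 0.17) and -0.12 in siTG2 (limma adjusted p = 0.24). The direct contrast of MLX was 0.26 (SE 0.077, limma adjusted p = 0.0083), beside a median of -0.01 over all genes. When libraries had equal totals it was 0.08 (limma adjusted p = 0.39), beside a median of -0.19 over all genes. PSMC3IP, on the opposite strand at the MLX locus, was lower than siControl in both knockdowns, at 428 counts in siRNF40, 455 in siTG2 and 619 in siControl cells. MLXIP (ENSG00000175727, chr12:122516628-122631894, plus strand, hg19) had 2631, 2478 and 2773 normalized counts in siRNF40 libraries, 3033, 2985 and 2845 in siTG2 libraries, and 3032, 2907 and 2987 in siControl libraries. The siRNF40 libraries were the lowest and the other groups overlapped. MLXIP had a log2 fold change of -0.18 against siControl (SE 0.068, limma adjusted p = 0.036) and of -0.17 against siTG2 (SE 0.068, limma adjusted p = 0.041), both called lower. Over the 20 alternatives the adjusted p of MLXIP ran from 0.013 to 0.2 against siControl, with the call lost in 9, and from 0.00029 to 0.14 against siTG2, with the call lost in 11. In siTG2 against siControl MLXIP had a log2 fold change of -0.01, with an interval of -0.15 to 0.13 (limma adjusted p = 0.93). MGA (ENSG00000174197, chr15:41913422-42062141, plus strand, hg19) had 3466, 3479 and 2551 normalized counts in siRNF40 libraries, 3782, 2780 and 3487 in siTG2 libraries, and 3377, 2824 and 3477 in siControl libraries. All 3 groups overlapped, and the log2 fold changes were -0.04 in siRNF40 against siControl (interval -0.29 to 0.21), 0.05 in siTG2 against siControl (interval -0.20 to 0.30) and -0.08 in the direct contrast (interval -0.33 to 0.17).

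**Figure D2:**
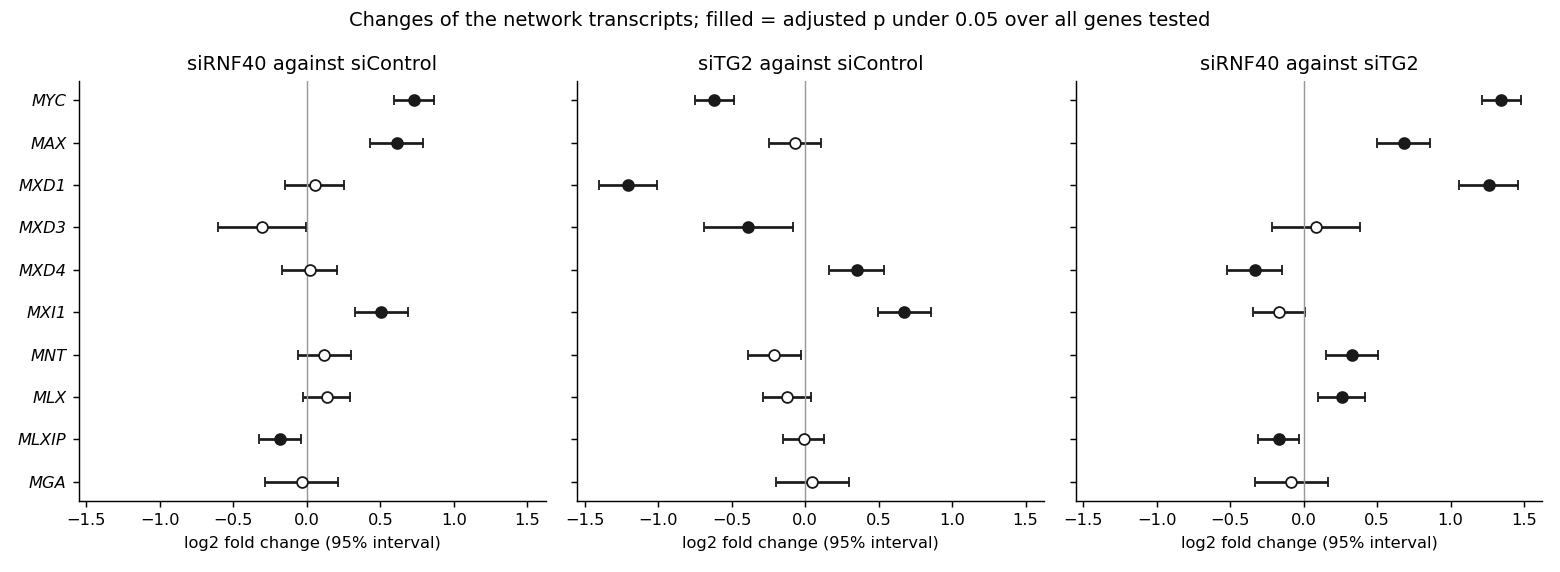
Log2 fold changes of the 10 network genes with 95% intervals, in panels for siRNF40 and for siTG2 against siControl and for the direct contrast of siRNF40 with siTG2. Filled points passed the test over all genes (limma adjusted p under 0.05) and open points did not. MYC lies at 0.73, -0.62 and 1.35 in the 3 panels, and MXD1 at 0.05, -1.21 and 1.26.

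Levels of different genes were compared per kb of exon, using the union of exons in GENCODE 29. In siControl cells MYC stood at 1937 counts per kb, followed by MXI1 at 473, MXD1 at 325, MAX at 312, MLX at 312, MLXIP at 214, MGA at 183, MXD4 at 146, MNT at 139 and MXD3 at 85.7. In this order the neighbours MXD1 and MAX, MAX and MLX, and MXD4 and MNT overlapped between libraries, and the other neighbours did not. MYC and MXI1 were also the highest in siRNF40 cells, at 3210 and 677 counts per kb, and in siTG2 cells, at 1262 and 755. MXD1 stood at 336 in siRNF40, 140 in siTG2 and 325 in siControl cells. The order depends on the length used. Per kb of the median coding transcript, siControl cells had MYC at 4258, MXI1 at 2454, MAX at 1851, MLXIP at 1803, MGA at 912, MLX at 557, MNT at 434, MXD3 at 377, MXD1 at 370 and MXD4 at 254. On that length MYC was also above MXI1 in siRNF40 cells, at 7056 and 3509, but below it in siTG2 cells, at 2775 and 3913. MXD1 was then the lowest of the 10 in siTG2 cells, at 159.

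The balance of MYC to its antagonists was described as MYC per kb divided by the summed per-kb levels of MXD1, MXD3, MXD4, MXI1 and MNT. This ratio was 2.45, 2.10 and 2.43 in siRNF40 libraries, 0.969, 0.980 and 1.04 in siTG2 libraries, and 1.56, 1.77 and 1.65 in siControl libraries. The groups did not overlap, with siRNF40 highest and siTG2 lowest. The antagonist sum itself was 1382 ± 88.9 counts per kb in siRNF40, 1268 ± 23.8 in siTG2 and 1169 ± 47.8 in siControl cells (SD, n = 3 each). In siTG2 cells the sum held less MXD1 and more MXI1 and MXD4 than in siControl cells. With the median coding-transcript length in place of the exon union the mean ratio was 1.44 in siRNF40, 0.548 in siTG2 and 1.10 in siControl cells, in the same order. The ratio of MYC to MAX per kb was 6.75 ± 0.488 in siRNF40, 4.25 ± 0.281 in siTG2 and 6.21 ± 0.249 in siControl cells (SD, n = 3 each), and siRNF40 and siControl libraries overlapped. No test was made on these ratios, which are mRNA levels and not protein levels.

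**Figure D3:**
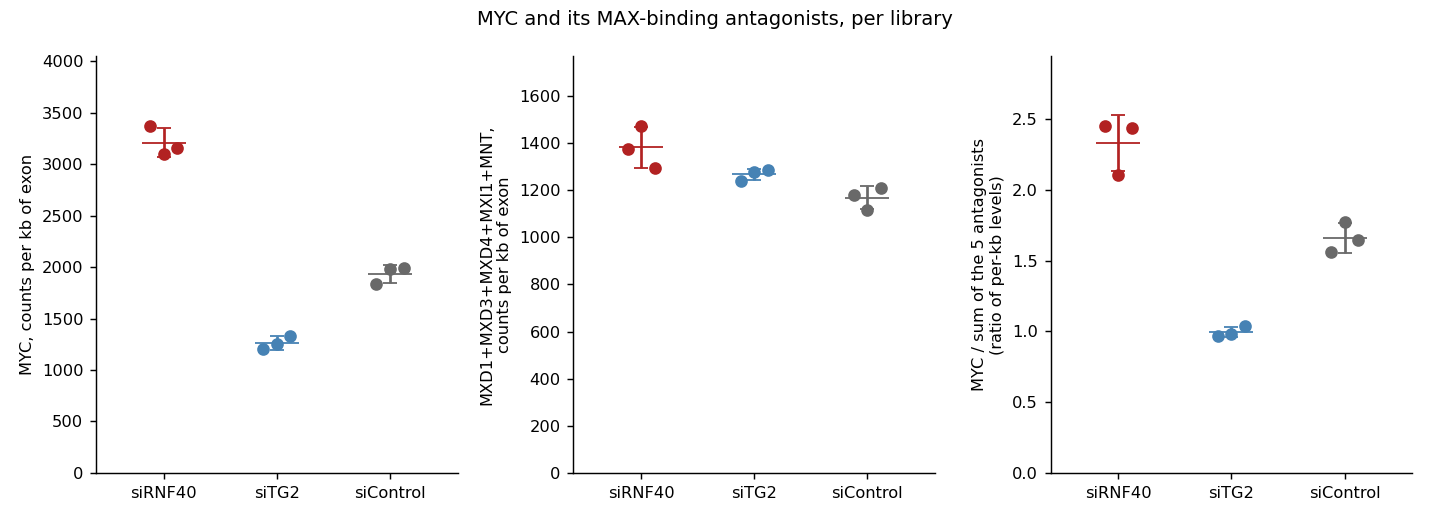
MYC per kb of exon (left), the summed per-kb level of 5 antagonists (middle) and the ratio of the first to the second (right) in each library, by siRNF40, siTG2 and siControl. Points are libraries, and the mark and bar are the mean and SD of 3. The ratio averages 2.33 in siRNF40, 0.995 in siTG2 and 1.66 in siControl cells.

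Genes known to be activated by MYC were mostly higher in siRNF40 cells. The list came from textbook knowledge, but was written with earlier results of these data known. Of 46 listed genes 45 were tested, and in siRNF40 against siControl 30 were higher and 5 were lower (median log2 fold change 0.33, beside 0.02 over all genes, of which 21.7% were higher and 23.6% lower). In siTG2 against siControl 2 were higher and 20 were lower (median -0.17, beside -0.01 over all genes, of which 12.8% were higher and 18.5% lower). That count depended on scaling, which also moved the background. Under equal totals it was 7 higher and 12 lower (median -0.03), while all 17663 genes had 3872 higher and 1890 lower (median 0.13). Under quantile normalization it was 6 higher and 12 lower (median -0.06), while all genes had 2606 higher and 2616 lower (median 0.004). In siRNF40 against siTG2 35 were higher and 5 were lower (median 0.55, beside -0.01 over all genes, of which 26.6% passed in each direction). Both comparisons with siControl share its libraries.

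BOP1, a factor of large ribosomal subunit assembly, rose to 933 ± 259 in siRNF40 cells, against 413 ± 40.7 in siControl cells (log2 fold change 1.15, limma adjusted p = 1.1e-05), and had a log2 fold change of -0.22 in siTG2 cells (limma adjusted p = 0.33). NPM1, nucleophosmin of the nucleolus, rose by 0.87 in siRNF40 cells (limma adjusted p = 5e-10) and had -0.09 in siTG2 cells (limma adjusted p = 0.26). NOP16, a nucleolar protein, rose by 0.58 in siRNF40 cells (limma adjusted p = 0.00051) and fell by 0.56 in siTG2 cells (limma adjusted p = 0.0012). SRM, spermidine synthase, averaged 1538 ± 317 in siRNF40, 571 ± 101 in siTG2 and 1062 ± 68.8 in siControl cells (SD, n = 3 each). Its log2 fold change was 0.52 in siRNF40 (limma adjusted p = 0.0037) and -0.91 in siTG2 (limma adjusted p = 3.7e-05). The largest fall in siTG2 cells after SRM was in TCOF1, treacle of the nucleolus (-0.59, limma adjusted p = 4.9e-06), followed by GART, an enzyme of purine synthesis (-0.58, limma adjusted p = 2.3e-07).

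The genes called against the majority of the list were 5 in siRNF40 cells, with LDHA and AMD1 the furthest, and PHB and TFRC in siTG2 cells. LDHA, lactate dehydrogenase A, fell to 5386 ± 258 in siRNF40 cells, against 15691 ± 430 in siControl cells (log2 fold change -1.54, limma adjusted p = 1.1e-12), and had -0.10 in siTG2 cells (limma adjusted p = 0.22). AMD1, an enzyme of polyamine synthesis, fell by 0.76 in siRNF40 cells (limma adjusted p = 1.2e-07) and by 0.33 in siTG2 cells (limma adjusted p = 0.002). TFRC, the transferrin receptor, had 0.04 in siRNF40 cells (limma adjusted p = 0.67) and rose by 0.45 in siTG2 cells (limma adjusted p = 3.3e-05). PHB, prohibitin, rose in both knockdowns, by 1.21 in siRNF40 cells (limma adjusted p = 5e-10) and by 0.38 in siTG2 cells (limma adjusted p = 0.00096). PKM, pyruvate kinase, had a log2 fold change of 0.04 in siRNF40 cells (limma adjusted p = 0.62) and fell by 0.45 in siTG2 cells (limma adjusted p = 3.5e-05). NCL, nucleolin, rose by 0.41 in siRNF40 cells (limma adjusted p = 7.2e-06) and had -0.11 in siTG2 cells (limma adjusted p = 0.14).

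**Figure D4:**
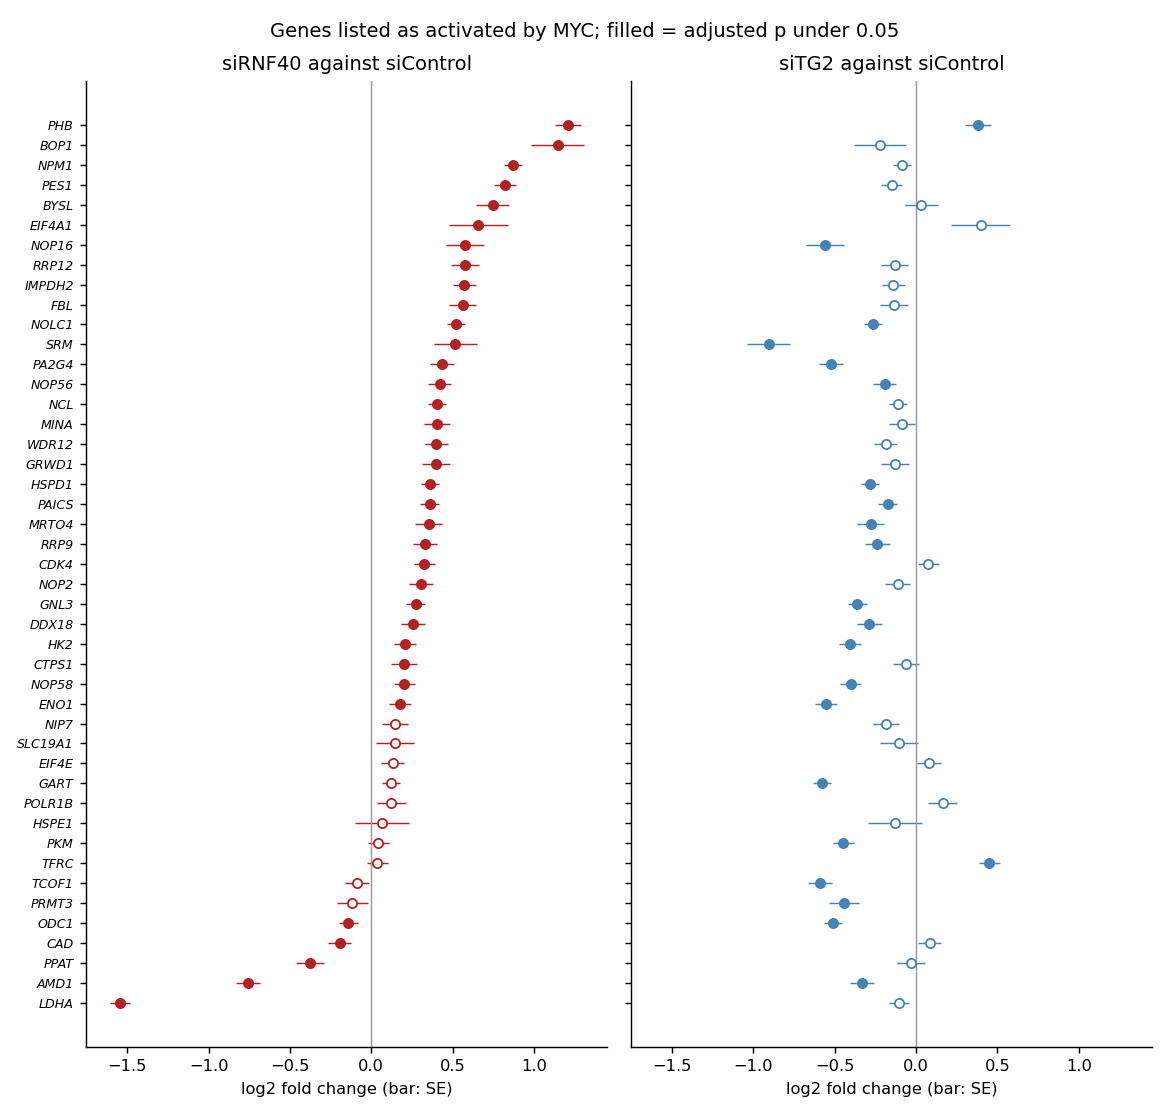
Log2 fold changes with SE of the 45 tested genes known to be activated by MYC, in siRNF40 against siControl (left) and siTG2 against siControl (right), ordered by the siRNF40 change. Filled points passed the test over all genes. In siRNF40 30 genes are higher and 5 lower, and in siTG2 2 are higher and 20 lower, and both panels use the same control libraries.

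Of 5 tested genes known to be repressed by MYC, 1 was higher in siRNF40 cells, where 21.7% of all genes were, and 1 was lower in siTG2 cells, where 18.5% were. These shares are near the background. CDKN1A, the p21 cell cycle inhibitor, rose by 1.78 in log2 units in siRNF40 cells (SE 0.065, limma adjusted p = 5.3e-13) and had -0.02 in siTG2 cells (limma adjusted p = 0.86). GADD45A, a stress-response gene, fell by 0.47 in siTG2 cells (limma adjusted p = 7.8e-05) and had 0.13 in siRNF40 cells (limma adjusted p = 0.17). Under quantile normalization 4 of the 5 were higher in siTG2 cells, where 2606 of all 17663 genes were. Under equal totals 2 of the 5 were, where 3872 of all genes were.

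Of 4 listed neighbours of MYC on its chromosome 3 were tested, with 2 higher in siRNF40 cells and 1 lower in siTG2 cells. Over all genes 21.7% were higher in siRNF40 cells and 18.5% lower in siTG2 cells. PVT1, a long noncoding RNA gene, averaged 2131 ± 165 in siRNF40, 973 ± 119 in siTG2 and 1246 ± 80.4 in siControl cells (SD, n = 3 each). It rose by 0.77 in siRNF40 (limma adjusted p = 2.2e-06) and fell by 0.36 in siTG2 (limma adjusted p = 0.0068). Under equal totals no neighbour was called in siTG2, where the median of all genes was 0.13. CCAT1, another noncoding RNA gene, averaged 248 ± 26.3 in siRNF40, 102 ± 22.5 in siTG2 and 109 ± 14.1 in siControl cells (SD, n = 3 each). It rose by 1.18 in siRNF40 (limma adjusted p = 0.00011) and had -0.11 in siTG2 (limma adjusted p = 0.72).

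By rule, the 5 genes whose log2 levels were most like MYC over the 9 libraries, among 11355 candidates, were NEK6, GALNT3, SDC4, RPF2 and DKC1. Their Pearson correlations with MYC were 0.997, 0.995, 0.995, 0.994 and 0.994, and the 9 libraries share 3 groups, so these values describe the group pattern.

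MLX and MLXIP are known to activate ARRDC4, an arrestin-domain gene that limits glucose uptake. It was the only 1 of 2 listed targets of this branch that was tested. The other, TXNIP, did not pass the filter on low values at its primary chromosome entry, and a second entry was not used. ARRDC4 fell to 3610 ± 535 in siRNF40 cells, against 8308 ± 124 in siControl cells (log2 fold change -1.21, SE 0.083, limma adjusted p = 1.1e-09). It rose to 11568 ± 645 in siTG2 cells (log2 fold change 0.48, limma adjusted p = 0.00022), and the direct contrast was -1.69 (limma adjusted p = 7.3e-12). Of other network proteins, MYCL, a MYC paralog, rose by 0.39 in siRNF40 cells (limma adjusted p = 0.0072) and had 0.04 in siTG2 cells (limma adjusted p = 0.81). MLXIPL (ChREBP), a paralog of MLXIP, fell by 0.31 in siTG2 cells (limma adjusted p = 0.017), a call lost under quantile normalization, with equal totals, with no intensity trend, without siControl replicate 2 and without siTG2 replicate 3, and had 0.03 in siRNF40 cells (limma adjusted p = 0.83). MYCN was at 0 in every library.

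Cofactors that MYC recruits to chromatin were 5 higher and 1 lower of 14 in siRNF40 cells and 1 higher and 6 lower of 14 in siTG2 cells, with median log2 fold changes of 0.12 and -0.21 in that order. Over all genes 21.7% were higher and 23.6% lower in siRNF40 cells, and 12.8% higher and 18.5% lower in siTG2 cells. The siTG2 median was -0.06 with equal totals and -0.09 with quantile normalization, with 2 higher and 5 lower under each. With equal totals all 17663 genes had 3872 higher and 1890 lower (median 0.13). With quantile normalization they had 2606 higher and 2616 lower (median 0.004). Without siRNF40 replicate 3 the siRNF40 counts were 3 higher and 1 lower. RUVBL1, an ATPase of chromatin remodelling complexes, averaged 4078 ± 185 in siRNF40, 2066 ± 47.2 in siTG2 and 2866 ± 115 in siControl cells (SD, n = 3 each). It rose by 0.51 in siRNF40 (limma adjusted p = 4.8e-06) and fell by 0.47 in siTG2 (limma adjusted p = 2.5e-05). WDR5, a scaffold of histone methyltransferases that binds MYC, fell by 0.70 in siTG2 cells (limma adjusted p = 2e-06) and had 0.15 in siRNF40 cells (limma adjusted p = 0.14). RUVBL2, the partner of RUVBL1, rose by 0.64 in siRNF40 cells (limma adjusted p = 4.7e-06), and TRRAP, a scaffold of acetyltransferase complexes, did not pass the test in either knockdown.

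Of 16 genes that act on MYC protein stability, 2 were higher and 9 lower in siRNF40 cells, and 0 were higher and 5 lower in siTG2 cells, with medians of -0.32 and -0.02 in that order. Of all genes, 21.7% were higher and 23.6% lower in siRNF40 cells, and 12.8% were higher and 18.5% lower in siTG2 cells. The siTG2 count became 4 higher and 3 lower under equal totals and 2 higher and 3 lower under quantile normalization. All 17663 genes then had 3872 higher and 1890 lower under equal totals, and 2606 higher and 2616 lower under quantile normalization. KIAA1524 (CIP2A), an inhibitor of the phosphatase that destabilizes MYC, fell to 700 ± 272 in siRNF40 cells, against 2434 ± 125 in siControl cells (log2 fold change -1.89, limma adjusted p = 2.6e-07). USP37, a deubiquitinase of MYC, fell by 1.06 in siRNF40 cells (limma adjusted p = 2.2e-06), and AURKA, a mitotic kinase, fell by 0.76 (limma adjusted p = 6.6e-08). In siTG2 cells USP37 fell by 0.37 (limma adjusted p = 0.039), with overlapping groups, and AURKA fell by 0.30 (limma adjusted p = 0.0026). SKP2, a ubiquitin ligase subunit, fell by 0.62 in siRNF40 cells (limma adjusted p = 0.00037) and by 0.73 in siTG2 cells (limma adjusted p = 0.00015). Protein levels were not measured in these files.

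Partners of the antagonists and of MGA had more lower than higher calls in siRNF40 cells. Of 17 SIN3 corepressor genes 2 were higher and 9 lower in siRNF40 cells (median -0.22), and 0 were higher and 3 lower in siTG2 cells (median -0.08). ARID4B, a SIN3 complex subunit, fell by 0.63 in siRNF40 cells (limma adjusted p = 1.9e-05) and had 0.02 in siTG2 cells (limma adjusted p = 0.89). HDAC1, a deacetylase of the complex, fell by 0.44 in siRNF40 cells (limma adjusted p = 9.5e-06). HDAC2, a further deacetylase in the list, was among the 2 higher genes and rose by 0.16 (limma adjusted p = 0.031). Of 11 genes of the MGA Polycomb complex, 1 was higher and 5 lower in siRNF40 cells (median -0.10), and 1 was higher and 2 lower in siTG2 cells (median 0.04). Over all genes 21.7% were higher and 23.6% lower in siRNF40 cells, and 12.8% higher and 18.5% lower in siTG2 cells. The 3 of 17 SIN3 genes and 2 of 11 MGA complex genes lower in siTG2 cells are therefore near the background. With equal totals the siTG2 counts were 2 higher and 2 lower for SIN3 genes and 3 higher and 1 lower for MGA complex genes. All 17663 genes then had 3872 higher and 1890 lower, at a median of 0.13. RNF2, a ubiquitin ligase of histone H2A, averaged 554 ± 63.0 in siRNF40, 1929 ± 142 in siTG2 and 1451 ± 56.9 in siControl cells (SD, n = 3 each). It fell by 1.39 in siRNF40 (limma adjusted p = 8.7e-10) and rose by 0.41 in siTG2 (limma adjusted p = 0.0024). PCGF6, the subunit that defines this Polycomb complex, fell by 0.78 in siRNF40 cells (limma adjusted p = 1.2e-06) and had -0.18 in siTG2 cells (limma adjusted p = 0.14).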

How the data were processed

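The tools in the submitters' processing notes are Trim Galore 0.4.1, STAR 2.7.0, HTSeq 0.12.4 and DESeq2, and the notes name hg19 as well as hg38. Gene positions in the files are those of hg19, and whether counting was stranded is not given in the sources used here. The values the authors deposited are a signal, read counts of each gene over a size factor of the library, in which 1 read was worth 0.880 to 1.10 units, and 100% of values lay within 0.001 of whole reads. Their deposited comparison tables hold log2 fold changes, a Wald score and p-values with adjusted p-values. Columns named NC were read as siControl because they average to the control means of those tables.

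limma 3.58.1 in R 4.3.3 was run, two-sided and with a trend for intensity, on log2(value + 1) for 17663 genes with a mean of at least 10. All 9 libraries entered 1 fit without covariates, and calls were made where p, adjusted by Benjamini-Hochberg over all genes tested, was under 0.05. A fold change on this scale understates the change of low genes. Replicates differed by more than sampling noise, with chi-square per degree of freedom of 5.17 to 23.1, so no library was counted as a repeat. Alternatives included edgeR 4.0.16 and DESeq2 1.42.0 on the recovered reads. The scripts were tested on simulated data. The network genes and the gene lists were chosen with earlier results of these data known. From each list, up to 4 called genes (mean at least 50, ranked by size of change) and up to 2 uncalled genes (ranked by mean) could be named in each comparison. AMD1 and TFRC were named after their values were seen. Genes most like MYC were ranked by Pearson correlation of log2 values among genes with a mean of at least 100.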

Additional observations from a re-analysis of the deposited data

Results flagged for a closer look

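MYC changed in opposite directions in the knockdowns, and the direct contrast of siRNF40 with siTG2 tests that difference. It gave a log2 fold change of 1.35 (SE 0.064, limma adjusted p = 5.1e-12), with 9632 ± 433 normalized counts in siRNF40 cells and 3788 ± 197 in siTG2 cells (SD, n = 3 each). All 3 siRNF40 libraries were above all 3 siTG2 libraries.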

How the results depend on the processing

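The 30 log2 fold changes of network genes were recomputed under 20 alternatives, giving 600 values, of which 542 kept their direction and side of the threshold, 31 lost the call, 5 gained it and 22 changed sign, all in genes that did not pass the test. The calls of MYC, and those of MAX, MXD1, MXD4 and MXI1 against siControl, held under all 20. Scaling to equal totals moved the median of all genes to 0.13 in siTG2 against siControl and to -0.19 in siRNF40 against siTG2, and the calls to 3872 higher and 1890 lower in siTG2 against siControl and to 3278 higher and 6324 lower in the direct contrast. Sign changes outside leave-one-out fits were, in siRNF40 against siControl, MXD4 with equal totals (-0.0143) and MGA with quantile normalization (0.0335). In siTG2 against siControl they were, with quantile normalization, MAX (0.0349) and MLXIP (0.111), with equal totals, MAX (0.0723), MLX (0.0187) and MLXIP (0.132), and with edgeR MLXIP (0.0125). In the direct contrast MXD3 with equal totals gave -0.0923. Leaving out a library gave signs both ways for MXD1 (-0.0522 to 0.126), MXD4 (-0.0157 to 0.0532) and MGA (-0.129 to 0.112) in siRNF40 against siControl, for MAX (-0.113 to 0.0115), MLXIP (-0.0299 to 0.0161) and MGA (-0.0453 to 0.177) in siTG2 against siControl, and for MXD3 (-0.00647 to 0.217) and MGA (-0.213 to 0.0639) in the direct contrast. The cause was not tested. Leaving out a library gave 6967 to 8073 genes called in siRNF40 against siControl, 4453 to 6150 in siTG2 against siControl and 8396 to 9345 in the direct contrast, and 3 to 4, 4 to 5 and 6 to 7 network genes.

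Replicate numbers did not pair the libraries, since the 9 same-number correlations ran from -0.0754 to 0.0813. With a replicate block 7735, 5164 and 9203 genes were called in the 3 comparisons. The block took the adjusted p of MLXIP to 0.06 against siControl and 0.067 against siTG2, and that of MXD3 in siTG2 to 0.065. The change that the test could call depended on the gene, with a median SE of 0.13 over all genes and 0.064 for MYC.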
